A study of Mus musculus with 12 samples.

Results

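The transcripts of 8 genes that store, carry and export iron were followed in RNA-seq libraries of HT22 cells. They comprised the ferritin subunits Fth1 and Ftl1, the ferritinophagy receptor Ncoa4, the iron chaperones Pcbp1 and Pcbp2, the iron exporter Slc40a1 and the ferroxidases Cp and Heph. The genes were selected by symbol, and all 8 were present among the 24343 uniquely named genes of the deposited tables. Of the 8, 6 passed the filter on low values and were tested together with the 11924 genes that passed it. Slc40a1 and Heph did not pass and are described by their values.

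The HT22 line grows continuously in culture and was established from the hippocampus of the mouse. The study profiled 12 libraries to ask how cells respond when ferritinophagy, iron supply or both are restricted. There were 4 groups of 3 libraries each, labelled as biological replicates. All cells received siRNA by liposome delivery, either a control siRNA (siControl) or one against Ncoa4 (siNCOA4), and each was used at normal iron or with the iron chelator deferoxamine (DFO) at 100 µM for 24 h (siControl+DFO and siNCOA4+DFO). The model is therefore 1 cell line with a transient and partial loss of Ncoa4. The p-values set differences between groups against the spread between these libraries, which the main fit estimated over all 4 groups together. Levels are in FPKM, a count of fragments divided by transcript length and by a library size. How that size was set is not stated in the sources used here. Scaling factors from the median ratio of genes between libraries (median-of-ratios) were 1.0035 to 1.013. On that measure the libraries were already on a common scale. The FPKM summed to 615784 to 627826 in siControl and 565558 to 599095 in siNCOA4. With DFO the sums were 676428 to 723077 in siControl+DFO and 691486 to 737313 in siNCOA4+DFO. Read totals are not kept. The relative depth recovered from the smallest FPKM values spanned 1.52-fold from the shallowest to the deepest library. It reflects the library size used for the FPKM, which may differ from the read total.

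Ferritin is a hollow shell of heavy (FTH1) and light (FTL) chains that holds iron in the cytosol. PCBP1 and PCBP2 bring iron to ferritin, and NCOA4 binds the heavy chain and carries ferritin to the lysosome, where its iron is released. Ferroportin, the product of Slc40a1, is the exporter of non-heme iron, and the copper enzymes ceruloplasmin (Cp) and hephaestin (Heph) oxidize the iron that leaves. When iron is scarce, the iron regulatory proteins bind iron responsive elements (IREs), short hairpins in the 5′ untranslated region (UTR) of ferritin and ferroportin mRNAs, and hold back their translation.

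The IRE core was searched for in the annotated 5′ UTRs as a C, a stem of 5 bases, the loop CAGTGN and 5 bases that pair with the stem, with G-T pairs allowed. It was present in 3 of the 8 genes, Fth1, Ftl1 and Slc40a1, and in 28 of 20890 genes with an annotated 5′ UTR (0.134%). These windows are shown because they set the ferritin and ferroportin transcripts apart from the other members. They are read 5′ to 3′ on the transcribed strand from GENCODE vM21 transcripts (GRCm38, the mm10 build), with the loop in capitals.
Fth1: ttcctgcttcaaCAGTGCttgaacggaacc
Ftl1: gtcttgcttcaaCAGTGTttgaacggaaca
Slc40a1: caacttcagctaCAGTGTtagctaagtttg
The Fth1 window lies in the 5′ UTR at chr19:9982732-9982761 on the plus strand. The Ftl1 window is at chr7:45459778-45459807 and the Slc40a1 window at chr1:45925464-45925493, both in the 5′ UTR on the minus strand. The ferritin windows were identical at 26 of 30 bases, and the Slc40a1 window matched either of them at 13. A match of letters is a description and does not show that the element is bound.

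On GRCm38, in the GENCODE vM21 annotation, Fth1 spans chr19:9980598-9985098 and Ftl1 chr7:45457944-45459884. Ncoa4 lies at chr14:32159865-32179855, Pcbp1 at chr6:86524492-86526321 and Pcbp2 at chr15:102470539-102500061. Of the export genes, Slc40a1 spans chr1:45908068-45926523, Cp chr3:19957054-20009145 and Heph chrX:96455359-96574485. Ftl1, Pcbp1 and Slc40a1 are on the minus strand and the others on the plus strand. Several of these transcripts resemble copies elsewhere in the genome, and reads from the shared stretches could be assigned to either copy. Of the 75-base windows of the Ftl1 transcripts, 64.6% occurred in other annotated genes, with 61.0% in Ftl1-ps1 alone. The share was 41.1% for Ncoa4, each time with Gm6768, 2.22% for Fth1 and 0.557% for Pcbp2. None of the windows of Pcbp1, Slc40a1, Cp or Heph was shared. The copies named here were not among the 24343 uniquely named genes, so they had no values to examine. Fthl17, another gene with a ferritin-like name, was listed at 0 in all 12 libraries. The values of Ftl1 and Ncoa4 are uncertain to that extent.

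The cell labels were checked against marker genes. Of 10 neuronal markers, 2 (Tubb3 and Eno2) reached 1 FPKM in each library, while Rbfox3, Map2, Snap25 and Dcx stayed at or below 0.179. All 4 fibroblast markers, Col1a1, Col1a2, Dcn and Pdgfra, exceeded 1 FPKM in each library. Their summed FPKM was 1282 to 1574 in siControl, 728 to 930.1 in siNCOA4, 347 to 464 in siControl+DFO and 394 to 481 in siNCOA4+DFO. The summed neuronal markers moved the other way under DFO, from 11.1 to 14.0 in siControl to 33.3 to 36.2 in siControl+DFO, largely through Eno2. The 5 astrocyte markers summed to 36.4 to 46.0 in siControl, 22.5 to 27.0 in siNCOA4, 3.18 to 5.42 in siControl+DFO and 6.95 to 15.1 in siNCOA4+DFO. These sums were mostly Slc1a3, which averaged 42.1, 24.0, 3.59 and 7.13 in the same order of groups. Aldh1l1 went the other way, averaging 0.324, 0.811, 0.678 and 2.5, while Gfap, Aqp4 and S100b stayed at or below 0.685. The part of these lists in the changes below was not tested. Microglial markers summed to at most 0.845 FPKM in any library and oligodendrocyte markers to at most 1.47.

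One library stood apart. Replicate 3 of siNCOA4+DFO correlated with the other libraries of its group at r of 0.926 to 0.934 across genes, against 0.947 to 0.955 within the other groups, and it was the shallowest library. Its correlation with the libraries without DFO, 0.884 to 0.914, reached higher than that of replicates 1 (0.868 to 0.888) and 2 (0.873 to 0.895). Results whose call depended on it are given with and without it.

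The 8 genes spanned the whole range of expression. In siControl, Fth1 averaged 1314 ± 25 FPKM (SD, n = 3) and ranked 51 of 24343 genes, followed by Ftl1 at 907 ± 64.5 (rank 76). Pcbp2 averaged 237 ± 20.4 (rank 282), Pcbp1 144 ± 3.89 (rank 438), Cp 23.5 ± 1.30 (rank 3309) and Ncoa4 6.22 ± 0.222 (rank 7870). Slc40a1 and Heph were listed at 0 in all 3 libraries. In this order, no pair of neighbours above 0 overlapped between libraries of siControl. The Fth1 level was 1.45 times that of Ftl1, and the storage genes stood far above the genes of release and export. The order of the 6 tested genes by group mean was kept in the other groups, but Fth1 and Ftl1 overlapped in siNCOA4+DFO, where the lowest Fth1 value (769) lay under the highest Ftl1 value (776).

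**Figure D1:**
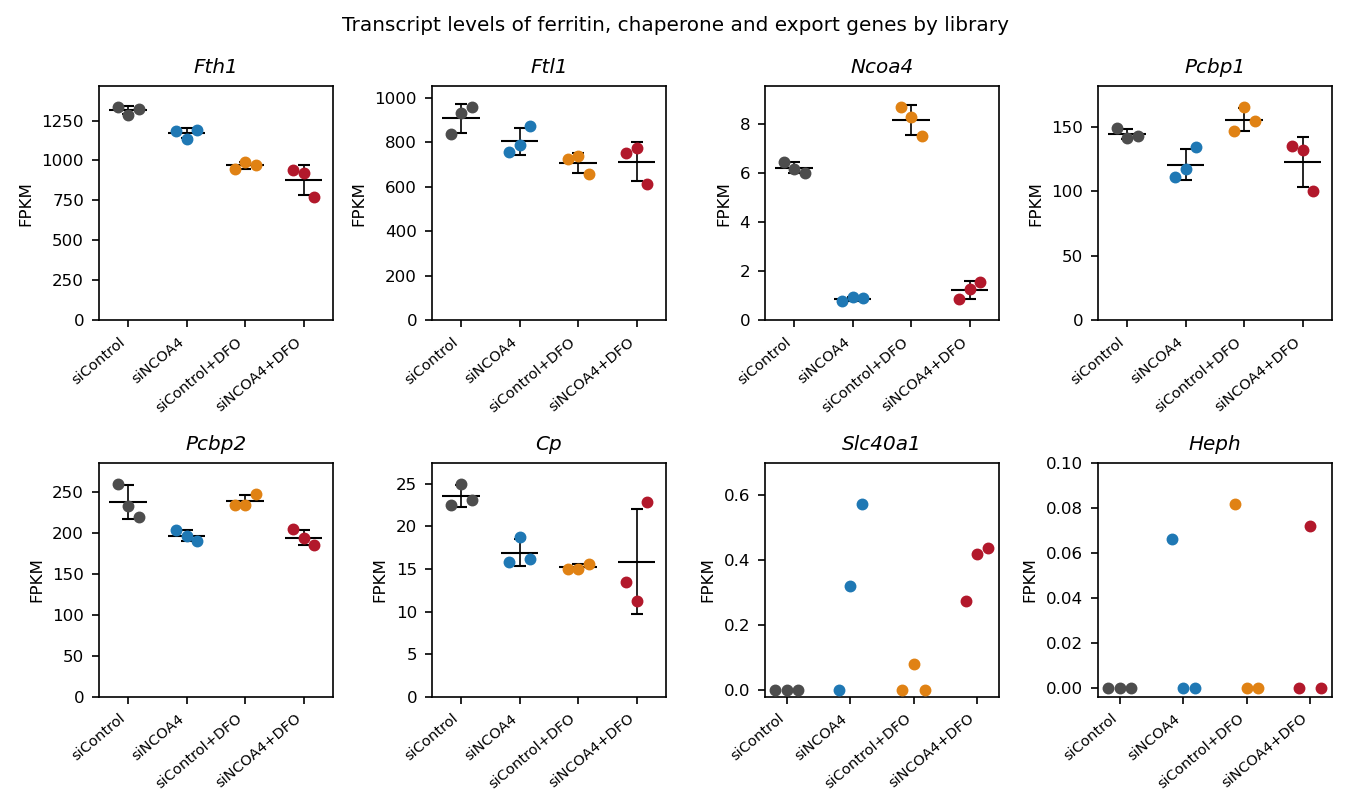
FPKM of each gene (linear y axes, each with its own range) in the 3 libraries of each group. Points are libraries in the order of their replicate numbers, horizontal lines are group means and bars are SD (n = 3), both left out for Slc40a1 and Heph because of their values at 0. Fth1 falls from 1286 to 1333 FPKM in siControl to 769 to 939.6 in siNCOA4+DFO, Ncoa4 is low in every siNCOA4 library, and Slc40a1 and Heph stay below 0.6.

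Fth1, the heavy chain that carries the ferroxidase site of ferritin, fell with DFO in cells with either siRNA. Its FPKM was 1333, 1286 and 1323 in replicates 1 to 3 of siControl and 945, 992 and 973 in siControl+DFO. It was 1186, 1136 and 1192 in siNCOA4 and 939.6, 923 and 769 in siNCOA4+DFO. The 4 groups did not overlap and stood in the order siControl, siNCOA4, siControl+DFO, siNCOA4+DFO from high to low. On the log2(FPKM + 0.1) scale the change with DFO was -0.44 in siControl cells (SE 0.10, adjusted p = 0.00288 by limma), a fold of 0.738, and -0.42 in siNCOA4 cells (SE 0.10, adjusted p = 0.00469). Without siNCOA4+DFO replicate 3 the change in siNCOA4 cells was -0.33 (adjusted p = 0.0155). The fall with both treatments relative to siControl was the deepest, -0.59 (SE 0.10, adjusted p = 3.94e-04), a fold of 0.665. The effect of Ncoa4 siRNA alone on Fth1 did not pass the test, at -0.17 without DFO (95% interval -0.38 to 0.05, adjusted p = 0.326) and -0.15 under DFO (-0.37 to 0.07, adjusted p = 0.326). Without siNCOA4+DFO replicate 3 the value under DFO was -0.06 (adjusted p = 0.744).

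Ftl1, the light chain that favours mineral formation inside the shell, also fell with DFO in control cells. Its values were 835, 930.4 and 957 FPKM in siControl and 726, 740.3 and 655 in siControl+DFO, without overlap. The log2 change was -0.36 (SE 0.11, adjusted p = 0.0178), a fold of 0.779, and it missed the threshold when siControl replicate 2 (adjusted p = 0.053), siControl replicate 3 (0.0624) or siControl+DFO replicate 3 (0.0714) was left out. In siNCOA4 the values were 756, 786 and 872 FPKM, which overlapped siControl, and in siNCOA4+DFO they were 749.9, 776 and 612. The DFO effect in siNCOA4 cells was -0.18 (95% interval -0.43 to 0.07, adjusted p = 0.223) and passed the test with quantile normalization only among the alternatives with all libraries (-0.27, adjusted p = 0.0239). Without siNCOA4+DFO replicate 3 it was -0.07 (adjusted p = 0.612). Ncoa4 siRNA gave -0.17 without DFO (-0.42 to 0.07, adjusted p = 0.365) and 0.01 under DFO (-0.24 to 0.25, adjusted p = 0.982), or 0.11 without siNCOA4+DFO replicate 3 (adjusted p = 0.554). With both treatments Ftl1 was lower than in siControl by a log2 change of -0.35 (adjusted p = 0.0209), or -0.25 without siNCOA4+DFO replicate 3 (adjusted p = 0.0792). That call was also lost without siControl replicate 2 (adjusted p = 0.0612) or 3 (0.0715) and in a fit of the compared groups alone (0.0651).

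The balance of the ferritin chains was compared within each library, where the ratio of Fth1 to Ftl1 does not depend on scaling. The ratio was 1.60, 1.38 and 1.38 in siControl and 1.57, 1.45 and 1.37 in siNCOA4. With DFO it was 1.30, 1.34 and 1.49 in control cells and 1.25, 1.19 and 1.26 in siNCOA4 cells. Every siNCOA4+DFO library lay below all 9 other libraries, while the other groups overlapped. The gap was narrow (1.26 against 1.30), this separation was not itself tested, and the share of gene pairs with such a pattern was not counted. Over both siRNAs the ratio was lower with DFO by a log2 difference of -0.16, a fold of 0.895 (two-sided exact permutation test within siRNA over 400 arrangements, p = 0.025, smallest possible 0.005). Adjusted over the 4 tests of ratios it was 0.1, which did not pass. The difference between siRNAs was -0.07 (exact permutation p = 0.23, adjusted 0.46).

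**Figure D2:**
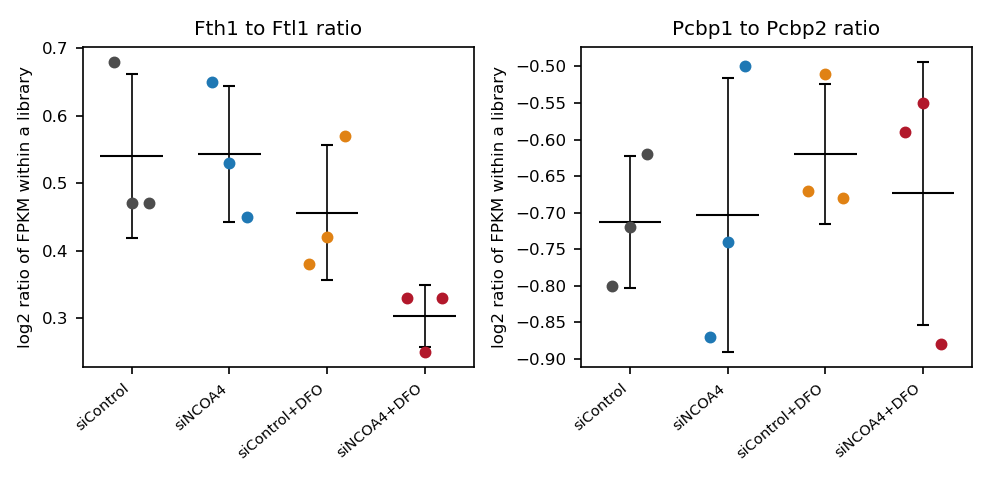
Log2 ratio of FPKM within each library for Fth1 to Ftl1 (left) and Pcbp1 to Pcbp2 (right), with the y axes not starting at 0. Points are libraries, lines are means of the log2 ratio and bars are SD (n = 3). The Fth1 to Ftl1 log2 ratio is 0.25 to 0.33 in siNCOA4+DFO and 0.38 or more in the other libraries, and the Pcbp1 to Pcbp2 ratios of all groups overlap.

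Ncoa4, the siRNA target, was low in all 6 libraries that received its siRNA. The highest value among them, 1.57 FPKM in siNCOA4+DFO replicate 3, lay below the lowest of the control siRNA, 6.02. With both treatments it was lower than in siControl by a log2 change of -2.28 (SE 0.21, adjusted p = 3.15e-06), a fold of 0.206. Within the knockdown, siNCOA4 ranged from 0.770 to 0.952 and siNCOA4+DFO from 0.850 to 1.57, which overlapped (log2 change 0.43, 95% interval -0.03 to 0.88, adjusted p = 0.119). This change was 0.65 without siNCOA4+DFO replicate 1 (adjusted p = 0.0153) and 0.25 without siNCOA4+DFO replicate 3 (adjusted p = 0.353), the lowest and the highest of that group. In control cells the values with DFO, 7.52 to 8.70, were all above those without, 6.02 to 6.46. That difference of 0.39 did not pass the test (95% interval -0.07 to 0.84, adjusted p = 0.136), although it did with a pseudocount of 1 (0.34, adjusted p = 0.0491) and in a fit of the compared groups alone (adjusted p = 0.0269).

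Pcbp1 and Pcbp2, RNA-binding proteins that also deliver iron to ferritin, did not pass the test for DFO. With Ncoa4 siRNA Pcbp2 passed at both iron conditions and Pcbp1 under DFO, and each of these calls was lost in some alternatives. Pcbp2 was 259.5, 232 and 219.6 FPKM in siControl and 203, 196 and 190.1 in siNCOA4. It was 234, 234 and 247 in siControl+DFO, and 204, 193 and 185 in siNCOA4+DFO. The groups with different siRNA did not overlap. The log2 change with Ncoa4 siRNA was -0.27 without DFO (SE 0.08, adjusted p = 0.0382) and -0.30 with it (SE 0.08, adjusted p = 0.0195), folds of 0.829 and 0.813. With both treatments relative to siControl it was -0.29 (adjusted p = 0.00741). All of these calls were lost with quantile normalization, at -0.13 (adjusted p = 0.351), -0.14 (0.265) and -0.11 (0.298), and the call under DFO was lost without siControl+DFO replicate 2 (adjusted p = 0.0502) or 3 (0.0659) and without siNCOA4+DFO replicate 2 (0.0504) or 3 (0.0622). The call at normal iron was lost in 5 of 10 alternatives with all libraries and in 8 of 12 fits that left out 1 library, with adjusted p up to 0.123.

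Pcbp1, a single-exon gene, was likewise lowest in the groups with Ncoa4 siRNA. Its FPKM was 149, 141 and 143 in siControl, 111, 117 and 134 in siNCOA4, 147, 165 and 154 in siControl+DFO and 135, 132 and 100.4 in siNCOA4+DFO. Each siNCOA4 group lay below the control group at the same iron status. The change passed the test under DFO, at -0.35 (SE 0.11, adjusted p = 0.0484), and not at normal iron, at -0.26 (95% interval -0.50 to -0.02, adjusted p = 0.157). Without siNCOA4+DFO replicate 3, the lowest Pcbp1 value, the order of these results turned: the change under DFO was -0.21 (adjusted p = 0.143) and at normal iron -0.26 (adjusted p = 0.0484). The call under DFO was lost in 9 of the 12 such fits, with adjusted p up to 0.147, and in 5 of 10 alternatives with all libraries, where the adjusted p lay between 0.0736 with the replicate block and 0.196 with quantile normalization (-0.21). With both treatments Pcbp1 changed by -0.25 relative to siControl (95% interval -0.49 to -0.01, adjusted p = 0.083), or -0.11 without siNCOA4+DFO replicate 3 (adjusted p = 0.323) and -0.32 without siNCOA4+DFO replicate 1 (adjusted p = 0.0449). DFO gave 0.10 in control cells (-0.14 to 0.35, adjusted p = 0.45) and 0.01 in siNCOA4 cells (-0.23 to 0.25, adjusted p = 0.939), the latter 0.15 without siNCOA4+DFO replicate 3 (adjusted p = 0.191). For Pcbp2 the values were 0.01 (-0.15 to 0.18, adjusted p = 0.916) and -0.02 (-0.18 to 0.15, adjusted p = 0.878). The Pcbp1 to Pcbp2 ratio had geometric means of 0.610 to 0.650 in the 4 groups and did not differ beyond its spread with DFO (exact permutation p = 0.45, adjusted 0.6) or siRNA (p = 0.805, exact permutation).

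**Figure D3:**
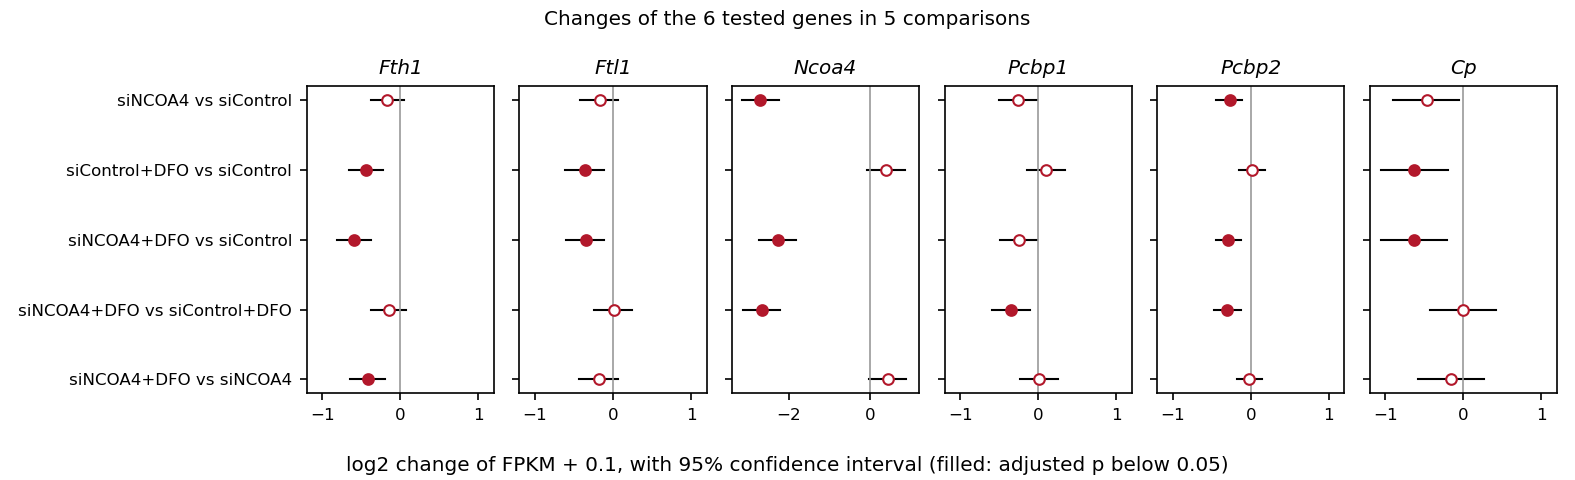
Log2 change of FPKM + 0.1 (x axis, wider for Ncoa4) of the 6 tested genes in 5 comparisons, with 95% confidence intervals. Filled points have an adjusted p below 0.05 by limma. Fth1 is lower in each of the 3 comparisons that add DFO, and Pcbp2 in each of the 3 that add Ncoa4 siRNA relative to control siRNA.

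Cp, whose product oxidizes ferrous iron for loading onto transferrin, fell with DFO in control cells. Its FPKM was 22.5, 25 and 23.1 in siControl and 15, 15 and 15.6 in siControl+DFO, without overlap. The log2 change was -0.63 (SE 0.20, adjusted p = 0.0172), a fold of 0.648, and it missed the threshold without siControl replicate 2 (adjusted p = 0.054). With Ncoa4 siRNA alone the values were 15.8, 18.8 and 16.2, all below siControl, and the change of -0.47 did not pass (95% interval -0.90 to -0.05, adjusted p = 0.145), although it did in a fit of the compared groups alone (adjusted p = 0.0305). In siNCOA4+DFO they were 13.5, 11.2 and 22.9, and the high value belonged to replicate 3, which reached the siControl range. With all libraries the change with both treatments was -0.63 (adjusted p = 0.0177). Without replicate 3 it was -0.93 (adjusted p = 4.08e-05), the DFO effect in siNCOA4 cells went from -0.16 (adjusted p = 0.549) to -0.45 (adjusted p = 0.00607), and the siNCOA4 effect at normal iron, with a smaller estimate of the spread, passed the test (adjusted p = 0.00906). The Cp call with both treatments was lost without siControl replicate 2 (adjusted p = 0.0562), siNCOA4+DFO replicate 1 (0.0644) or siNCOA4+DFO replicate 2 (-0.42, adjusted p = 0.0777), and in a fit of the compared groups alone (0.0667). Under DFO the siRNA groups differed by -0.01 (-0.43 to 0.42, adjusted p = 0.986), or -0.30 without siNCOA4+DFO replicate 3 (adjusted p = 0.103). The fibroblast marker sum given above was likewise lower in each of the 3 treated groups than in siControl. The astrocyte sum was lower too, mostly through Slc1a3, while Aldh1l1 went the other way. The part of these markers in the Cp values was not tested.

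Slc40a1, the exporter gene, had low values in most libraries with Ncoa4 siRNA and 0 in each siControl library. Its FPKM was 0, 0.320 and 0.573 in siNCOA4, 0, 0.0810 and 0 in siControl+DFO and 0.273, 0.420 and 0.436 in siNCOA4+DFO. Multiplied by the relative depth, these values were whole multiples of their smallest step to within 0.0012 steps. The multiples were 0, 4 and 8 in siNCOA4, 0, 1 and 0 in siControl+DFO and 3, 5 and 4 in siNCOA4+DFO. Over both iron conditions, 5 of 6 libraries with Ncoa4 siRNA had a value above 0, with 24 steps in all, against 1 of 6 libraries and 1 step with control siRNA. The siNCOA4 libraries were also the deepest (relative depth 1.26 to 1.41). Relative depth was 0.928 to 1.2 in siNCOA4+DFO, 1.0 to 1.25 in siControl and 1.06 to 1.25 in siControl+DFO. The part of depth in these values was not tested. Genes above 0 numbered 12643 to 12804 in siControl and 13066 to 13120 in siNCOA4. With DFO they numbered 13548 to 13618 in siControl+DFO and 13454 to 14024 in siNCOA4+DFO. The share of genes with such a pattern was not counted. How many fragments make a step is not known, and a value of 0 in FPKM tables can be a failed estimate.

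The gene was tested only without the filter on low values, among 17414 genes. There the change with both treatments passed the test (adjusted p = 0.0116), in a comparison where 33.1% of genes did. The siControl values were all 0, and this fit was run only with the pseudocount of 0.1 and all libraries. Whether the call holds without siNCOA4+DFO replicate 3 was not tested. The siNCOA4 change did not pass without DFO (adjusted p = 0.147, 6.56% of genes called) or under DFO (adjusted p = 0.0602, 9.73% called). DFO gave an adjusted p of 0.784 in control cells (36.3% called) and 0.468 in siNCOA4 cells (28.5% called). No fold is given against libraries at 0. Heph, a membrane-bound ferroxidase, was above 0 in 1 library each of siNCOA4 (0.0660 FPKM), siControl+DFO (0.0814) and siNCOA4+DFO (0.0718), each time by a single step, and no comparison of it had an adjusted p below 0.542.

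**Figure D4:**
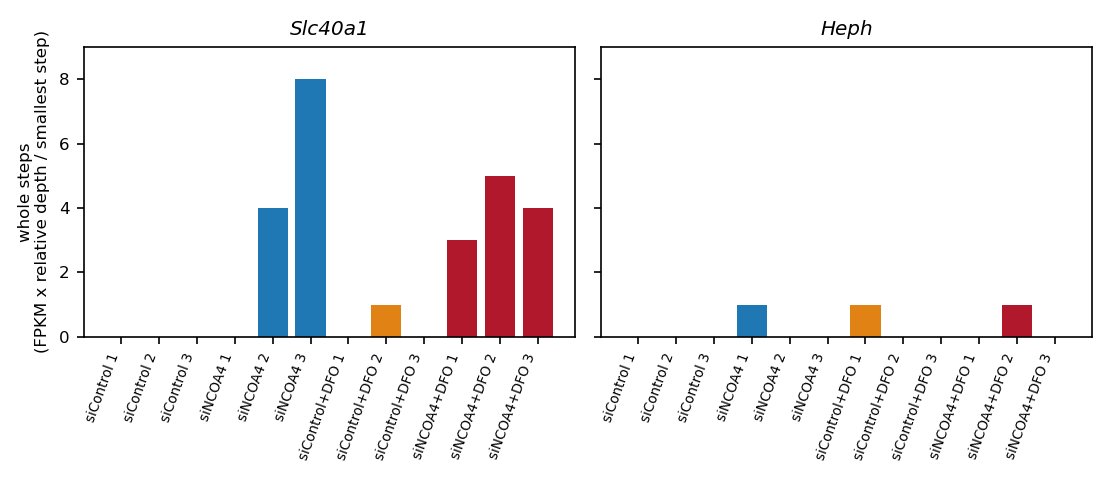
Whole steps of Slc40a1 (left) and Heph (right) in each of the 12 libraries, that is FPKM times relative depth, divided by the gene's smallest value above 0 on that scale. Bars are single libraries coloured by group. Slc40a1 reaches 3 to 8 steps in 5 libraries, all with Ncoa4 siRNA, and Heph has at most 1 step.

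Across the genes tested, these changes stood against a broad response to DFO. With DFO in control cells 3 of the 6 tested members passed, all lower (Fth1, Ftl1 and Cp), where 53.4% of all genes passed and 25.7% were lower, so that the share of members called was near the background. Their median log2 change was -0.17, against -0.01 over all genes. In siNCOA4 cells DFO gave 1 call, Fth1, against 42.7% of all genes and 19.6% that were lower. With both treatments 5 members were lower than in siControl (Fth1, Ftl1, Ncoa4, Pcbp2 and Cp), where 48.8% of genes passed and 23.4% were lower. The median of the members was -0.47 against 0.01. Ncoa4 is the siRNA target, so its fall was set by the design, and it enters both the count and the median. By range alone, 3 members lay wholly below siControl in siControl+DFO (29.6% of genes) and Ncoa4 wholly above (31.1%). With both treatments 5 lay below siControl, the target Ncoa4 among them (26.3%), and in siNCOA4+DFO 1 lay below siNCOA4 (25.1%). The comparisons with siControl share its libraries.

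The response to Ncoa4 siRNA was narrower. At normal iron 2 of the 6 tested members were called, Ncoa4 itself and Pcbp2, against 11.7% of all genes and 7.21% that were lower. Under DFO there were 3, Ncoa4, Pcbp1 and Pcbp2, against 16.5% and 10.2% that were lower. Of all calls in that comparison 37.8% were higher, a share that became 50.6% with quantile normalization. By range alone, 5 of the 6, the target Ncoa4 among them, lay wholly below siControl in siNCOA4, which 17.6% of genes did, and Ftl1 overlapped. Under DFO 4 of the 6 did so (20.1% of genes), namely Fth1, Ncoa4, Pcbp1 and Pcbp2. With a fold change above 2 in addition, Ncoa4 alone was called at normal iron (1.78% of genes), with both treatments (15.2%) and under DFO (2.09%), and no member was called for DFO in either siRNA (18.8% of genes in control and 11.4% in siNCOA4 cells).

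Whether the DFO effect differed between siRNAs was tested as an interaction, in which no member had an adjusted p below 0.05 and 2.1% of all genes did. The interval of the difference on the log2 scale was -0.29 to 0.32 for Fth1 and -0.17 to 0.53 for Ftl1. For Cp the difference was 0.47 (-0.13 to 1.07, adjusted p = 0.41), and 0.17 without siNCOA4+DFO replicate 3. Unadjusted, the limma p was below 0.05 for 0 of the 6 and lowest for Cp, at 0.117.

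Other genes of iron handling were grouped by role, and their calls with DFO in control cells stand against the 53.4% of all genes called there. Of 8 genes listed under delivery of ferritin to the lysosome or its regulation, 5 rose and 1 fell with DFO in control cells. The median log2 change was 0.37 against -0.01 over all genes. The list mixes receptor and autophagy genes with ubiquitin ligase genes such as Trim7, so its median gives no direction for ferritin delivery. Trim7, a ubiquitin ligase gene, went from 1.68 ± 0.536 to 7.94 ± 1.70 FPKM (log2 change 2.20, adjusted p = 9.01e-05). Tax1bp1, an autophagy receptor that takes part in ferritin turnover, went from 71.2 ± 3.37 to 126 ± 11.6 (0.82, adjusted p = 2.31e-06), and Gabarapl2, a ubiquitin-like protein of the autophagosome, changed by 0.61 (adjusted p = 0.00816). For Ncoa4 siRNA at normal iron limma called 0 of the 8, where 11.7% of all genes were called, and 0 had an unadjusted p below 0.05.

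Of 4 tested genes among the other chaperones and ferritin relatives, 1 rose and 1 fell with DFO, near the 53.4% of all genes. Pcbp4, a relative of Pcbp1 and Pcbp2, fell from 33.3 ± 2.08 to 14.6 ± 1.30 FPKM (log2 change -1.19, adjusted p = 2.05e-06). It was also the one gene in these lists called for Ncoa4 siRNA at normal iron, where 11.7% of all genes were called. Its level there was 17.2 ± 1.42 FPKM (log2 change -0.95, adjusted p = 1.73e-04). Glrx3, a cytosolic glutaredoxin, changed by 0.69 (adjusted p = 0.0479).

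Among the iron sensors, Aco1, which encodes IRP1, changed by -0.59 with DFO (adjusted p = 0.00246) and Ireb2, which encodes IRP2, by 0.52 (adjusted p = 0.00117), while Fbxl5 did not pass. Of 8 tested genes of iron import and reduction, 4 rose and 2 fell, where 53.4% of all genes were called, with a median of 0.34 against -0.01. Tfrc, the transferrin receptor gene, went from 70.3 ± 2.02 to 328 ± 17.2 FPKM (log2 change 2.22, adjusted p = 3.08e-09), the metal transporter gene Slc39a14 changed by 1.77 (adjusted p = 4e-06) and the metalloreductase gene Steap2 by -0.90 (adjusted p = 6.29e-04). Abcg2, a heme exporter gene, changed by -1.33 (adjusted p = 4.58e-05), and the other tested gene of export, App, did not pass. For Ncoa4 siRNA at normal iron limma called 0 genes of sensing, import and export, where 11.7% of all genes were called. At an unadjusted p below 0.05 there were 2, both in the import list and chosen here after their values were seen, Slc25a28 (log2 change 0.44, adjusted p = 0.0586) and Steap3 (-0.33, adjusted p = 0.154).

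**Figure D5:**
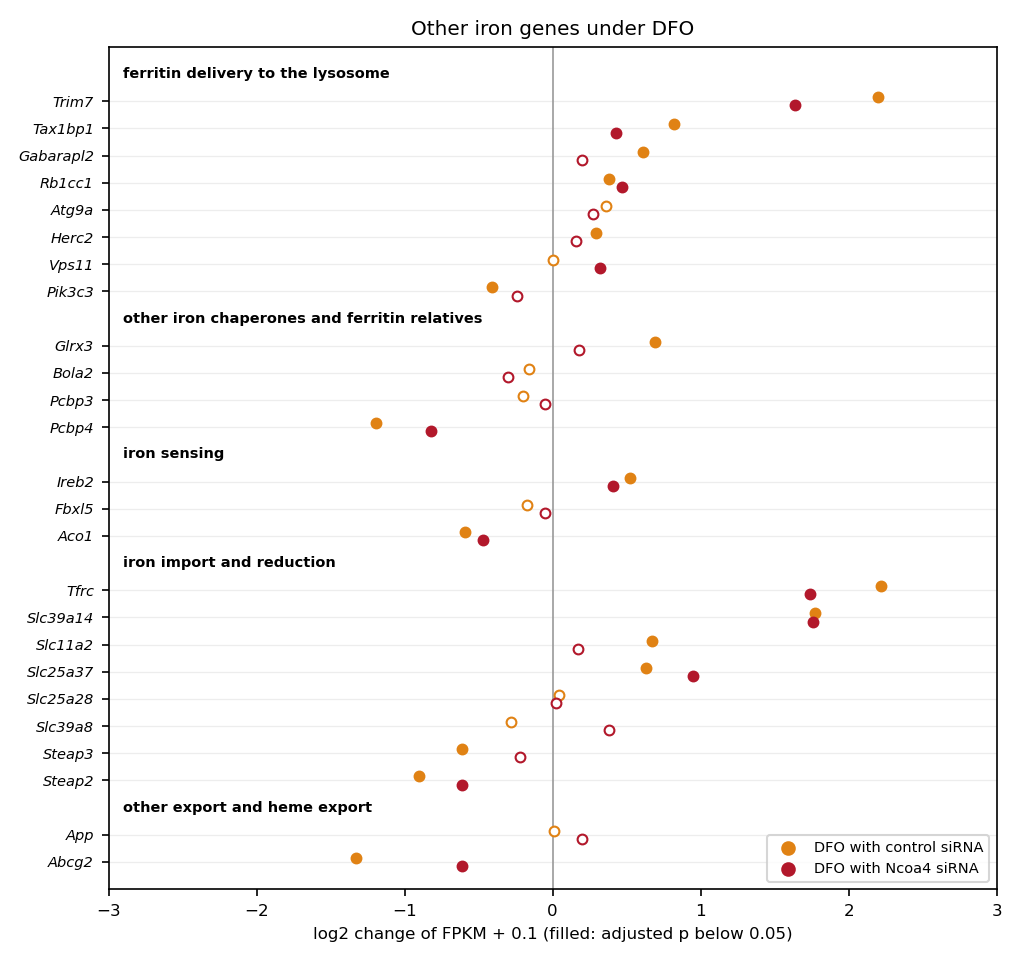
Log2 change of FPKM + 0.1 with DFO (x axis) for the tested genes of 5 lists (y axis), in cells with control siRNA (orange) and with Ncoa4 siRNA (red). Filled points have an adjusted p below 0.05. Tfrc and Trim7 have the largest rises with control siRNA (2.22 and 2.20) and Abcg2 the lowest value (-1.33).

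The genes whose levels moved most like each member over the 12 libraries were found by Pearson's r of log2(FPKM + 0.1) among 11923 other genes. For Fth1 they were Nuak1 (0.986) and Fscn1 (0.979), for Ftl1 Npdc1 (0.975) and Thap4 (0.968), and for Ncoa4 Papola (0.985) and Esd (0.979). Pcbp1 was closest to Shisa5 (0.927) and Ralb (0.919), Pcbp2 to a septin gene whose name the tables give as a date (0.954) and Rab31 (0.948), and Cp to Prcp (0.935) and Pcmtd1 (0.933). The libraries share 4 groups, so these values describe the group pattern. Between the members, r was 0.86 for Fth1 with Ftl1 and 0.87 for Ncoa4 with Pcbp2, and 0.16 for Fth1 with Ncoa4.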

How the data were processed

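RNA was sequenced from 12 HT22 libraries, 3 per group. The authors deposited 1 table of FPKM per library. The submitters' processing notes name Trimmomatic 0.33, FastQC, HISAT2 2.1.0, featureCounts, edgeR and the mm10 build. The step that made the FPKM and the annotation are not given in the sources used here. Each table held 24347 entries, and 4 with a shared name were left out. Groups and replicate numbers came from the sample titles.

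Genes were kept where at least 3 libraries reached 0.5 FPKM, 11924 in all. In R 4.3.3, limma 3.58.1 fitted group means of log2(FPKM + 0.1) in all 12 libraries, with a mean-variance trend (8 residual and 4.07 prior degrees of freedom) and Benjamini-Hochberg adjustment over all genes tested within each comparison. The pseudocount understates changes of low genes. Calls had an adjusted p below 0.05, and those with a fold change above 2 were also counted, as in the study. Since the values are not counts, no count model was used. The fit was tested on simulated data. Ratios within libraries were compared by exact permutation.

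FPKM keep no read totals, so no counting interval is given. Relative depth was taken as the most common ratio of low values between a library and siControl replicate 1. Sequences came from GENCODE vM21 (GRCm38), promoter windows from RefSeq, and were searched with pandas 2.3.3 and numpy 2.4.6 in Python 3.11.15. Figures were drawn with matplotlib 3.10.9. The named genes were all members, their possible copies by name, up to 3 called genes per list with the largest change for DFO and for Ncoa4 siRNA, and the 2 genes most correlated with each tested member. One gene of the lists is not reported here. The members and the lists were chosen with earlier results of these data known. Alternatives were pseudocounts of 1 and 0.01, no filter, a minimum of 2 FPKM, median-of-ratios scaling, quantile normalization, a replicate block, a fit restricted to the compared groups, robust moderation, moderation without the trend, and leaving out each library.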

Additional observations from a re-analysis of the deposited data

How the results depend on the processing

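No member's called change reversed under any alternative. The Fth1 calls with DFO and the Ncoa4 calls with its siRNA held under every alternative with all libraries and in each fit without 1 library. Median-of-ratios scaling used factors of 1.0035 to 1.013, so it could hardly change a call. Quantile normalization was the other alternative that rescaled the libraries. The count of members called in siNCOA4 relative to siControl went from 2 to 1 without a filter, with quantile normalization, with the replicate block and without a trend, each time through Pcbp2. In the compared groups alone it stayed at 2, with Pcbp2 lost (adjusted p = 0.0846) and Cp gained (0.0305). With quantile normalization it went from 3 to 1 for Ncoa4 siRNA under DFO and from 1 to 2 for DFO in siNCOA4 cells. In the compared groups alone it went from 5 to 3 for both treatments, with Ftl1 and Cp lost. Leaving out 1 library gave 1 to 4 calls for Ncoa4 siRNA, 1 to 3 for DFO, 3 to 5 for both, 1 to 3 for Ncoa4 siRNA under DFO, 1 to 2 for DFO in siNCOA4 cells and 0 to 0 for the interaction. For the Fth1 to Ftl1 log2 ratio the difference then ranged from -0.19 to -0.13 with DFO and from -0.10 to -0.04 with siRNA, and for Pcbp1 to Pcbp2 from 0.02 to 0.11 and from -0.07 to 0.03. The cause was not tested.

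Same-numbered libraries deviated together at r of -0.13 to 0.12 over 18 pairs, and other numbers at -0.17 to 0.16, so the numbers were not taken as pairs. With the replicate block the Fth1 to Ftl1 difference with DFO stayed at -0.16, with an exact permutation p of 0.0938, and Pcbp1 under DFO missed the threshold (adjusted p = 0.0736). Over all genes, the interaction gave 250 calls, and 165 with quantile normalization or 164 without a trend, and as few as 76 without siControl+DFO replicate 1. Ncoa4 siRNA at normal iron gave 1399 calls, and 718 without siNCOA4 replicate 2, 857 without siNCOA4 replicate 3 or 932 without siControl replicate 1. Ncoa4 siRNA under DFO gave 1963 calls, 1149 in the compared groups alone, 1204 without siControl+DFO replicate 2 and 1299 without siNCOA4+DFO replicate 3.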

Other observations

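The promoters of the members were searched on both strands for 2 short sequences, in windows of RefSeq (GRCm38) around each annotated start. The hypoxia response core ACGTG was present in 21.8% of 27025 genes. It was found in 2 of 3 Ncoa4 windows and in the Pcbp1 window, and not in the windows of Fth1, Ftl1, Pcbp2 or Cp. The antioxidant response core TGACNNNGC was present in 14.0% of genes and, among the members with a window, in 1 Ncoa4 window. No window was used for Slc40a1 or Heph. A match of letters is a description and not a bound site.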
